A study of Mus musculus with 51 samples.

Results

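Genes of efferocytosis, the engulfment of dying cells, were followed through astrocyte, microglia and total homogenate libraries of the mouse prefrontal cortex. They were taken by symbol and comprise 10 of the 24421 genes counted in every library: the bridging molecules Mfge8, Gas6 and Pros1, the TAM receptors Mertk, Axl and Tyro3, the integrin subunits Itgav and Itgb5, and the engulfment receptors Megf10 and Cd36. All 10 passed the expression filter in every comparison. The questions asked were which preparation carried the bridge and which the receptor, and how each gene compared between ethanol-exposed and control mice.

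Dying cells expose phosphatidylserine on their outer membrane. Bridging molecules bind this lipid with one domain and a receptor on the engulfing cell with another, so a bridge made by one cell can serve a receptor carried by its neighbor. Mfge8 links phosphatidylserine to alpha-v integrins such as the Itgav-Itgb5 pair, while Gas6 and Pros1 link it to the TAM receptor tyrosine kinases, named after Tyro3, Axl and Mertk. Megf10 is an engulfment receptor known from astrocytes, which use it together with Mertk to take up synapses, and Cd36 is a scavenger receptor of macrophages. In the brain, microglia are the main engulfing cells.

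The mice were adult C57BL/6J males. In the chronic intermittent ethanol (CIE) group, 9 mice were given ethanol (1.6 g/kg) together with pyrazole (1 mmol/kg), which inhibits alcohol dehydrogenase. They then breathed ethanol vapor, 16 h daily in 4 weekly cycles that alternated with undisturbed weeks. The 8 control mice received saline with the same dose of pyrazole and spent as long in chambers with fresh air. By the numbers in the sample titles, each of the 17 mice gave 3 libraries, 51 in all. Of the tissue suspension, 5% was kept as total homogenate, and astrocytes were captured from the rest with beads against the surface antigen ACSA2. Microglia were captured with CD11b beads from the cells that ACSA2 beads had not held. CD11b is shared by microglia and other myeloid cells, so the microglia preparation is defined by that antigen.

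Counts assigned to genes ranged from 2082289 to 10041788 in astrocytes, from 571878 to 6026453 in microglia and from 5042926 to 15594154 in homogenate, so values in microglia rest on the fewest reads. Levels are given as CPM, read counts relative to library size, scaled over the 51 libraries together by the trimmed mean of M values (TMM). Astrocyte markers summed to 11622 to 20127 CPM in control astrocytes and 268 to 849 CPM in control microglia, and microglia markers to 29569 to 42699 CPM in control microglia and 1545 to 6518 CPM in control astrocytes. Oligodendrocyte markers reached 13990 to 19901 CPM in control astrocytes, a sum as large as that of the astrocyte markers, against 903 to 3442 CPM in homogenate. The library called astrocytes thus held oligodendrocyte RNA as well. No marker of either list was at 0 in every library of a group. Fewer cells of a type and less RNA per cell cannot be told apart in these bulk libraries.

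The promoters of the bridging molecules are shown first, because the bridges were highest in different preparations. Each sequence holds the 250 bases before the RefSeq transcription start on build GRCm38.p6 and is printed along the gene's strand. That of Mfge8 lies at chr7:79149061-79149310 on the minus strand, that of Gas6 at chr8:13494536-13494785 on the minus strand and that of Pros1 at chr16:62854057-62854306 on the plus strand. Capitals mark matches, on either strand, to the GC box (GGGCGG), to the core of the Notch effector Rbpj (TGGGAA), to the core of the myeloid factor Pu.1 (GAGGAA) and to the Sox core (AACAAT).
Mfge8 promoter: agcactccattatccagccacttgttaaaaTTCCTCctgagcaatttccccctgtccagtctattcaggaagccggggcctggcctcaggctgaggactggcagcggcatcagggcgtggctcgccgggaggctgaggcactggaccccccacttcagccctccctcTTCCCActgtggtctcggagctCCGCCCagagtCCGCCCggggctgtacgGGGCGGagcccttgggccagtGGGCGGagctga
Gas6 promoter: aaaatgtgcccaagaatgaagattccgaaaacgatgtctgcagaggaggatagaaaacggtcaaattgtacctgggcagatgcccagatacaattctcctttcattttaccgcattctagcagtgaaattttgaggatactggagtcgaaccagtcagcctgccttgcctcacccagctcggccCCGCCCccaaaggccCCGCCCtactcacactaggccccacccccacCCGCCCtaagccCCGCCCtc
Pros1 promoter: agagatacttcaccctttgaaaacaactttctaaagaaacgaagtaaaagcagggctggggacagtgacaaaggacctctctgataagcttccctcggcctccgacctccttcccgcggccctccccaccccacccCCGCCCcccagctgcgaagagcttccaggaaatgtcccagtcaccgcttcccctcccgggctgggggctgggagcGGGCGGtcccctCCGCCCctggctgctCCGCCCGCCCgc
The GC box occurred 4 times in the Mfge8 window, 4 times in that of Gas6 and 5 times in that of Pros1, where a pair of matches overlaps. Of 32851 promoter windows of the same length, 32.7% held it at least once. The Mfge8 window also held 1 match to the Rbpj core, 83 bases before the start, and 1 to the Pu.1 core, 220 bases before it. Of all windows, 21.6% held the Rbpj core and 23.3% the Pu.1 core. The Sox core, present in 9.42% of windows, matched none of the 3. Guanine and cytosine made up 65.2% of the Mfge8 window, 54.8% of that of Gas6 and 64.4% of that of Pros1, against a median of 52.4%. These matches are descriptions of letters, and binding was not measured.

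Mfge8 was highest in astrocytes, and Gas6 and Pros1 were highest in microglia. Across control mice Mfge8 had 1103 to 1635 CPM (median 1285) in astrocytes, 38.8 to 120.0 CPM (median 72.5) in microglia and 185 to 281 CPM (median 212) in homogenate. The 3 preparations did not overlap. Mfge8 was higher in astrocytes than in homogenate (log2 difference 2.59, SE 0.22, adjusted p = 2.29e-15, edgeR quasi-likelihood test) and lower in microglia than in homogenate (-1.58, SE 0.22, adjusted p = 5.99e-09). Astrocytes exceeded microglia in each of the 17 mice, by 4.17 on the log2 scale in controls (SE 0.24, adjusted p = 2.53e-21).

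Gas6, a vitamin K-dependent ligand of all TAM receptors, ran the other way. It had 176 to 271 CPM (median 218) in control microglia, 86.5 to 120.4 CPM (median 98.7) in astrocytes and 74.0 to 110.7 CPM (median 95.5) in homogenate. Microglia lay above both other preparations in every control mouse, while astrocytes and homogenate overlapped. Gas6 was higher in microglia than in homogenate by 1.22 (SE 0.10, adjusted p = 3.59e-16) and lower in astrocytes than in microglia by 1.15 (log2 difference -1.15, SE 0.10, adjusted p = 9.36e-15). Between astrocytes and homogenate the log2 difference was 0.08 (95% interval -0.12 to 0.27, adjusted p = 0.489). The 12 microglia markers exceeded homogenate in control microglia by a median log2 difference of 5.38, against 1.22 for Gas6. Gas6 was thus not confined to microglia, and the cells that gave it in homogenate were not tested.

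Pros1, the anticoagulant protein S and a ligand of Tyro3 and Mertk, was highest in microglia as well. Its control levels were 195 to 303 CPM (median 267) in microglia, 43.5 to 92.4 CPM (median 68.8) in astrocytes and 16.8 to 23.3 CPM (median 21.3) in homogenate. No control library of one preparation reached the levels of another. Pros1 was higher than in homogenate by 3.61 in microglia (SE 0.14, adjusted p = 6.35e-29) and by 1.68 in astrocytes (SE 0.13, adjusted p = 1.35e-16), both log2 differences. Set per kilobase of the longest coding transcript so that genes can be compared, Mfge8 made up 91.2 ± 1.96% (SD, n = 8) of the summed level of the bridges in control astrocytes, 17.3 ± 5.34% in microglia and 70.4 ± 4.72% in homogenate. Gas6 and Pros1 shared the rest of the microglial level with 43.4 ± 2.75% and 39.3 ± 3.49%. These shares depend on the length used: divided by all exonic bases, an alternative chosen after seeing the data, Mfge8 made up 83.5 ± 3.26% in astrocytes, 9.50 ± 3.20% in microglia and 52.8 ± 5.79% in homogenate of control mice, and 74.5 ± 6.04% in CIE astrocytes.

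**Figure D1:**
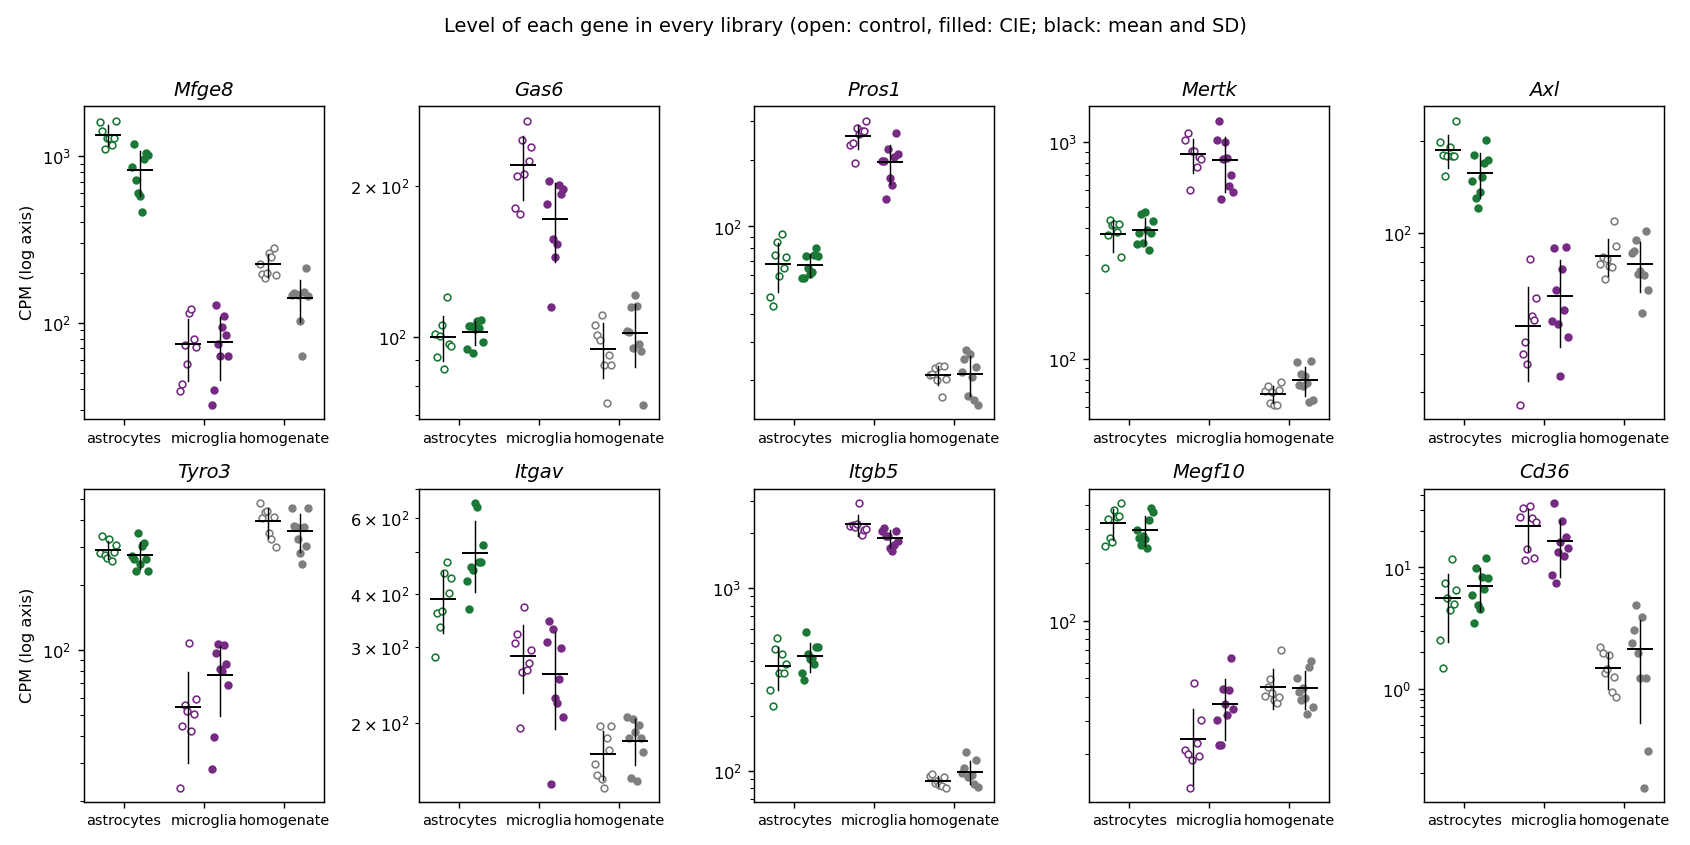
Level of each of the 10 genes in CPM on a log axis in every library, by preparation, with open points for the 8 control and filled points for the 9 CIE mice, and black lines for the mean and SD. Control Mfge8 sits at 1103 to 1635 CPM in astrocytes, above every other group of that panel, while Itgb5 sits at 1949 to 2917 CPM in control microglia.

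Each TAM receptor had its highest mean level in another preparation. Mertk, the main TAM receptor of phagocytes, had 600 to 1096 CPM (median 880) in control microglia, 263 to 436 CPM (median 399) in astrocytes and 61.0 to 77.7 CPM (median 70.4) in homogenate, with no overlap. Its log2 difference from homogenate was 3.67 in microglia (SE 0.15, adjusted p = 2.67e-28) and 2.45 in astrocytes (SE 0.14, adjusted p = 7.25e-22), and astrocytes lay below microglia by 1.22 (log2 difference -1.22, SE 0.13, adjusted p = 1.44e-11). Astrocyte libraries thus carried Mertk at 42.8% of the microglial level.

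Axl, the TAM receptor that binds Gas6 but not Pros1, had 154 to 233 CPM (median 179) in control astrocytes, 27.3 to 82.3 CPM (median 48.0) in microglia and 70.6 to 109.3 CPM (median 80.7) in homogenate. Astrocytes stood clear of the other preparations, and microglia overlapped homogenate. Axl was higher in astrocytes than in homogenate by 1.15 (SE 0.15, adjusted p = 1.23e-09) and lower in microglia than in homogenate (log2 difference -0.75, SE 0.16, adjusted p = 3.13e-05). Astrocytes exceeded microglia by 1.90 (SE 0.16, adjusted p = 3.24e-15).

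Tyro3, the TAM receptor known from neurons and oligodendrocytes, was the member whose highest levels were in homogenate, at 297 to 476 CPM (median 410) in control mice. It had 256 to 335 CPM (median 281) in astrocytes and 23.1 to 108.0 CPM (median 51.1) in microglia. Homogenate overlapped astrocytes, and both lay above microglia. Tyro3 was lower than in homogenate in microglia (log2 difference -2.86, SE 0.19, adjusted p = 1.60e-19) and, by less, in astrocytes (-0.43, SE 0.17, adjusted p = 0.0200). The latter call was lost without control mouse 19 (adjusted p = 0.0517), without control mouse 20 (0.0681) and with scaling by library size only (-0.27, 0.184). Per kilobase, Mertk made up 89.3 ± 3.93% (SD, n = 8) of the summed TAM receptors in control microglia and 44.3 ± 5.81% in astrocytes, and Tyro3 made up 70.9 ± 4.19% in homogenate.

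Both alpha-v integrin subunits, receptors for Mfge8, were above homogenate in both sorted preparations, and Itgb5 was the steepest of all members. Itgb5 had 1949 to 2917 CPM (median 2165) in control microglia, 226 to 534 CPM (median 363) in astrocytes and 80.7 to 96.1 CPM (median 86.5) in homogenate. The preparations did not overlap. Against homogenate the log2 difference was 4.67 in microglia (SE 0.14, adjusted p = 1.01e-32) and 2.10 in astrocytes (SE 0.13, adjusted p = 5.38e-21). Itgav, the alpha subunit, had 285 to 474 CPM (median 383) in control astrocytes, 195 to 372 CPM (median 286) in microglia and 142 to 197 CPM (median 167) in homogenate. Astrocytes and microglia overlapped, and the lowest microglia library fell among the homogenate libraries. Itgav differed from homogenate by 1.20 in astrocytes (SE 0.13, adjusted p = 1.21e-11) and by 0.76 in microglia (SE 0.13, adjusted p = 8.70e-07), and astrocytes exceeded microglia by 0.44 (SE 0.13, adjusted p = 0.00291), in 7 of 8 control mice.

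Megf10 was highest in the astrocyte preparation, and Cd36, at a low level, in the microglia preparation. Megf10 had 245 to 411 CPM (median 343) in control astrocytes, 13.4 to 47.0 CPM (median 20.5) in microglia and 37.1 to 69.9 CPM (median 40.96) in homogenate. Astrocytes stood clear, and microglia overlapped homogenate. It was higher in astrocytes than in homogenate by 2.85 (SE 0.17, adjusted p = 5.34e-21) and lower in microglia than in homogenate (log2 difference -0.91, SE 0.18, adjusted p = 1.35e-05). In CIE mice the latter difference was -0.23 (SE 0.16, adjusted p = 0.191). Cd36 had 11.5 to 32.1 CPM (median 24.6) in control microglia, 1.47 to 11.8 CPM (median 5.30) in astrocytes and 0.859 to 2.20 CPM (median 1.39) in homogenate, on 5 to 46 counts per astrocyte library, and astrocytes overlapped both other preparations. Its log2 difference from homogenate was 3.83 in microglia (SE 0.37, adjusted p = 1.49e-13) and 1.91 in astrocytes (SE 0.37, adjusted p = 9.79e-06).

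Against homogenate, 8 members were thus higher and 1 lower in astrocytes. Of all 14379 genes tested, 77% differed in this comparison, 36.2% as higher and 40.8% as lower. In microglia 6 members were higher and 4 lower, where 83.6% of all genes differed, 37.5% as higher and 46.1% as lower. Differing at all was thus the common state of a gene. The median log2 difference of the members was 1.79 in astrocytes (-0.06 over all genes) and 0.99 in microglia (-0.17 over all genes). Between the sorted preparations all 10 differed, 5 higher in astrocytes and 5 in microglia, against 69.8% of all genes (34.1% higher in astrocytes and 35.7% higher in microglia).

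**Figure D2:**
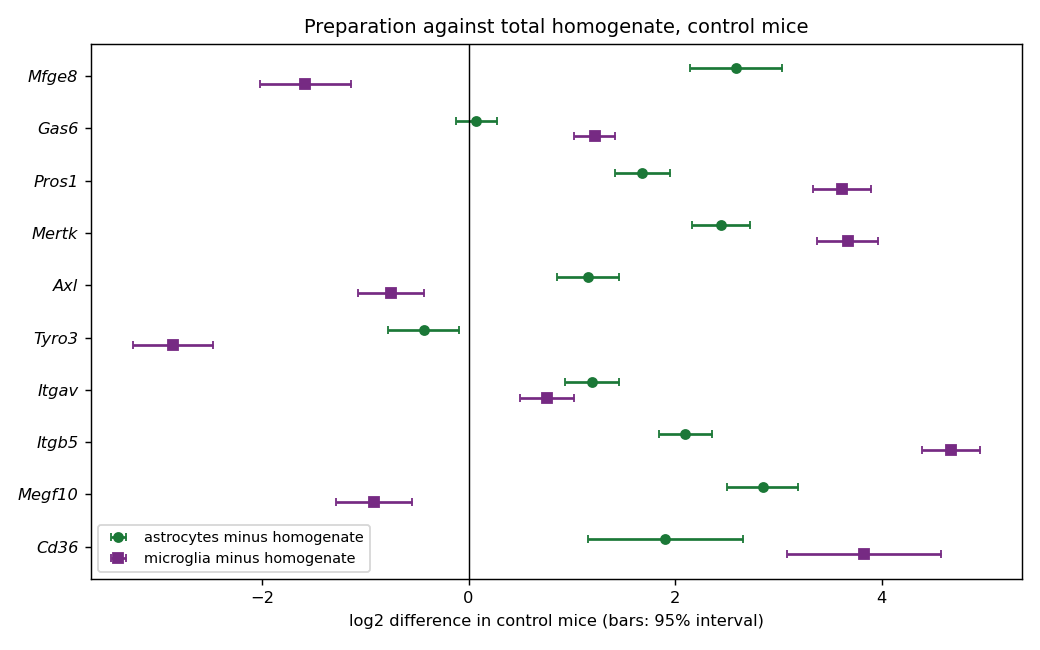
Log2 difference of each gene from total homogenate in control mice, for astrocytes (circles) and microglia (squares), with bars for the 95% interval. Mfge8, Axl and Megf10 lie on opposite sides of 0 in the 2 preparations, and Itgb5 reaches 4.67 in microglia.

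Reads carried over between the sorted preparations bear on these levels, and the marker genes give a scale for them. The 12 microglia markers were present in control astrocytes at a median of 12.5% of their microglial level (11.2 to 20.4%). Itgb5, at 16.8%, lay inside that range. Pros1 (26.2%), Cd36 (26.4%), Mertk (42.8%) and Gas6 (45.2%) lay above it, so their levels in astrocyte libraries were larger than the share at which microglia markers appeared there. Border macrophage and monocyte markers, which the CD11b beads also hold, were present at a median of 28.5% (2.97 to 33.8%). In the other direction, the 12 astrocyte markers were present in control microglia at a median of 1.73% of their astrocyte level (1.43 to 6.62%). Slc1a3 set the upper end of that range. Mfge8, at 5.56%, lay inside the range but above its median, and Megf10, at 7.37%, just above the range. Tyro3 (18.6%) and Axl (26.8%) lay higher. Tyro3 fell within the range of the oligodendrocyte markers (17.9 to 23.5%). Axl fell within the ranges of the oligodendrocyte precursor (20.7 to 49.9%) and endothelial markers (22.1 to 70.7%). The range of the mural cell and fibroblast markers (15.2 to 60.4%) held both genes. The part of these other cells in the levels of the members was not tested.

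**Figure D3:**
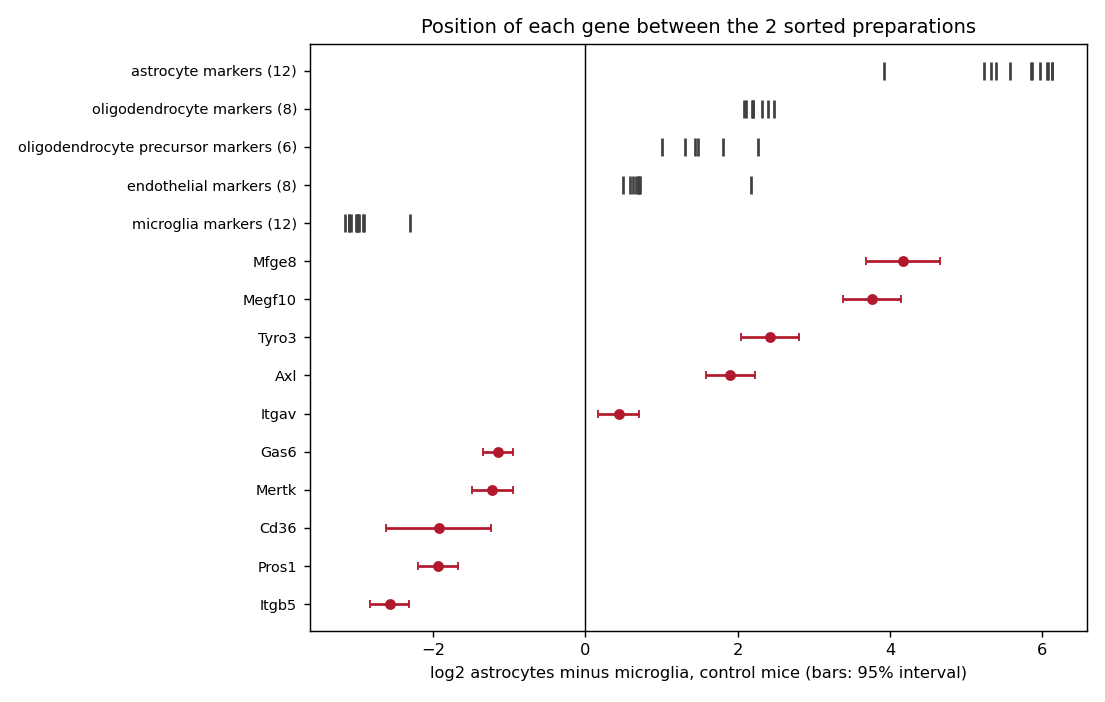
Log2 difference between astrocytes and microglia in control mice for each gene (points, with bars for the 95% interval) and for each marker of 5 cell type lists (ticks, with the number of markers in brackets). Mfge8 (4.17) and Megf10 (3.76) approach the astrocyte markers, Itgb5 (-2.57) lies beside the microglia markers, and Mertk (-1.22) and Gas6 (-1.15) lie between the lists.

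Within a preparation, levels can be ordered per kilobase of the longest coding transcript. In control astrocytes Mfge8 stood alone at 633 ± 90.4 CPM per kb (SD, n = 8). Itgb5 (114 ± 30.5), Mertk (87.1 ± 14.6), Tyro3 (65.0 ± 6.37), Itgav (54.9 ± 8.97), Axl (43.7 ± 5.38), Megf10 (43.2 ± 8.00), Gas6 (39.2 ± 4.01), Pros1 (20.4 ± 5.14) and Cd36 (1.64 ± 0.932) followed. Neighbors from Itgb5 to Gas6 had overlapping SDs, except Mertk and Tyro3, whereas Pros1 and Cd36 were each set apart.

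The microglial order began with a receptor instead. Itgb5 had 679 ± 89.2 and Mertk 203 ± 35.5 CPM per kb (SD, n = 8), followed by Gas6 (86.4 ± 12.7), Pros1 (77.9 ± 10.1), Itgav (40.7 ± 7.28), Mfge8 (35.1 ± 14.1), Tyro3 (12.2 ± 5.46), Axl (11.6 ± 3.97), Cd36 (6.49 ± 2.45) and Megf10 (3.21 ± 1.38). SDs overlapped between Gas6 and Pros1, between Itgav and Mfge8, and between each pair of neighbors from Tyro3 to Megf10. In homogenate Mfge8 (105 ± 16.7 CPM per kb) and Tyro3 (87.9 ± 13.9) were highest and overlapped, followed by Gas6 (37.2 ± 4.60), Itgb5 (26.7 ± 1.75), Itgav (23.99 ± 3.13), Axl (19.6 ± 2.77), Mertk (16.0 ± 1.49), Pros1 (6.40 ± 0.656), Megf10 (6.01 ± 1.43) and Cd36 (0.439 ± 0.145). SDs there also overlapped between neighbors from Itgb5 to Mertk and between Pros1 and Megf10. Divided by all exonic bases, the order of Mfge8 and Tyro3 in homogenate was turned (47.6 for Mfge8 and 63.2 for Tyro3), while Mfge8 stayed first in astrocytes and Itgb5 in microglia.

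The genes whose profiles over the 51 libraries were closest to a member, by root mean square difference of centred log2 CPM among 12185 genes, were as follows. Itgb5 was closest to Lgmn (0.16), Rps6ka1 (0.18) and Ptgs1 (0.20), Mertk to Wipf1 (0.24), Arap1 (0.28) and Plxdc2 (0.28), and Pros1 to Cd164, Adam17 and Snx18 (0.20, 0.20 and 0.21). Lgmn is a lysosomal protease and Ptgs1 a cyclooxygenase. Megf10 was closest to S1pr1, Hepacam and Fgfr2 (0.39, 0.39 and 0.40), and Mfge8 to Adora2b, Arhgef19 and Slc38a3 (0.42, 0.42 and 0.44). The remaining members lay nearest to Ppt1, Glb1 and Smurf1 (Gas6), Dag1, Eci1 and Add3 (Axl), Srcin1, Hid1 and Enpp5 (Tyro3), Ankib1, Fryl and Tcf12 (Itgav) and Dab2, Nhlrc3 and Erap1 (Cd36). The libraries share mice and preparations, and these distances are descriptions.

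After CIE, Mfge8 was lower in astrocytes, and no other member passed the test in any preparation. Astrocyte Mfge8 was 1103 to 1635 CPM (median 1285) in the 8 control mice and 464 to 1180 CPM (median 864) in the 9 CIE mice. All CIE libraries lay below the control median and 8 of 9 below the lowest control library. The log2 fold change was -0.71 (SE 0.16, 95% interval -1.05 to -0.37, adjusted p = 0.0180, edgeR quasi-likelihood test), and the mean CIE level was 61.3% of the control mean. Of 12878 genes tested in astrocytes 5.13% passed, 2.91% as higher and 2.22% as lower, so 1 of 10 members is near the share of any gene.

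CIE Mfge8 was lower in each range of mouse numbers. In mice 03 to 08 it had 1411 and 1604 CPM in the control and 864 and 1180 CPM in the CIE libraries. Mice 19 to 26 had 1103 to 1285 CPM (n = 3) in control and 464 to 720.0 CPM (n = 4) in CIE libraries, and mice 35 to 41 had 1164 to 1635 CPM (n = 3) and 959 to 1042 CPM (n = 3). Within a range, no CIE astrocyte library reached the control libraries, and the sole overlap of the pooled groups came from CIE mouse 08, at 1180 CPM. The mean log2 difference was -0.58, -1.06 and -0.42 in the 3 ranges, in that order, and the largest of them came from mice 19 to 26. The labels do not say what the ranges stand for.

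Of the 12 astrocyte markers, 1 passed as lower, 1 passed as higher and 10 did not pass in astrocytes. Their sum was 11622 to 20127 CPM (median 17042) in control and 10589 to 17292 CPM (median 14462) in CIE astrocytes, and the log2 fold changes of the markers ran from -0.39 (Sox9, adjusted p = 0.0173) to 0.66 (Gjb6, adjusted p = 0.00891), with a median of -0.19. Mfge8, at -0.71, lay below all of them. With the astrocyte markers as a covariate, an alternative chosen after seeing the data, Mfge8 changed by -0.55 (SE 0.14, adjusted p = 0.0315). Oligodendrocyte markers had a median sum of 17243 CPM in control and 17626 CPM in CIE astrocytes.

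Homogenate, taken to come from the same mice and so not an independent sample, gave a like value for Mfge8 that missed the threshold. It was 185 to 281 CPM (median 212) in control and 63.1 to 213 CPM (median 148) in CIE homogenate, with 8 of 9 CIE libraries below the lowest control library and mouse 40 as the exception. The log2 fold change was -0.66 (SE 0.16, 95% interval -1.0 to -0.31, adjusted p = 0.109). It passed with DESeq2 (-0.66, adjusted p = 0.0174), with the astrocyte markers as a covariate (-0.64, adjusted p = 0.0193) and without mouse 40 (-0.75, adjusted p = 0.0441). The difference between the astrocyte and homogenate responses was -0.04 (95% interval -0.62 to 0.53, adjusted p = 1.00). In microglia, where Mfge8 was at 38.8 to 120.0 CPM (median 72.5) in control and 32.0 to 128 CPM (median 74.5) in CIE mice, the log2 fold change was 0.04 (95% interval -0.46 to 0.55, adjusted p = 0.974). The response in astrocytes differed from that in microglia by -0.73 (95% interval -1.33 to -0.13), which did not pass over all genes (adjusted p = 0.323).

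**Figure D4:**
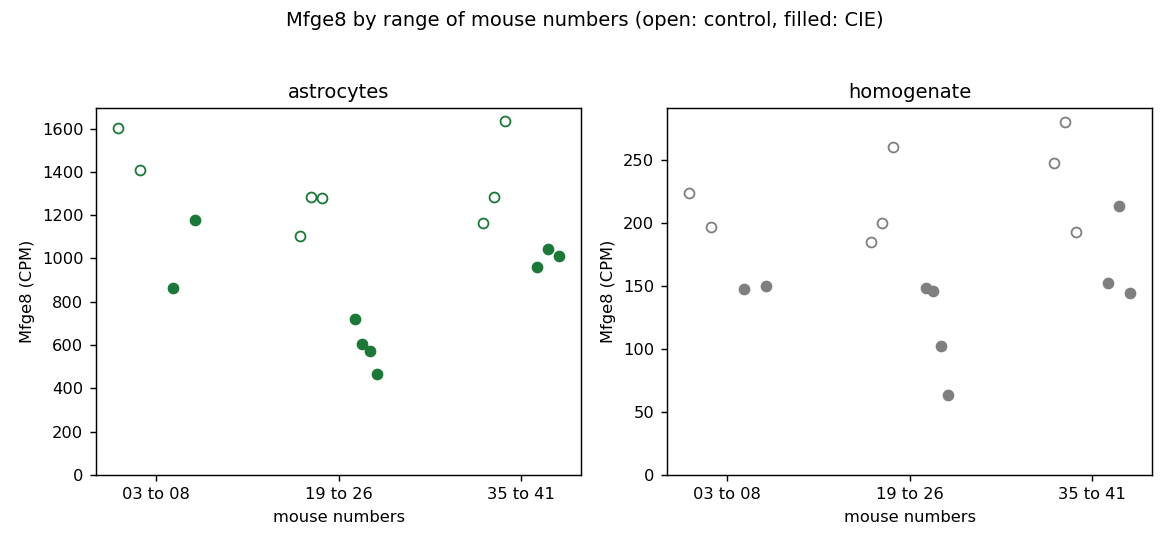
Mfge8 in CPM in astrocytes (left) and homogenate (right) by range of mouse numbers, with open points for control and filled points for CIE libraries. In astrocytes the CIE libraries lie below the control libraries of each range, and in homogenate CIE mouse 40, at 213 CPM, lies among the controls of mice 35 to 41.

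The other bridges did not pass the test in astrocytes. Gas6 had 86.5 to 120.4 CPM (median 98.7) in control and 93.1 to 108.1 CPM (median 104) in CIE astrocytes (log2 fold change 0.04, 95% interval -0.10 to 0.17, adjusted p = 0.802). Pros1 had 43.5 to 92.4 CPM (median 68.8) and 58.2 to 79.5 CPM (median 65.1), a log2 fold change of -0.01 (95% interval -0.26 to 0.24, adjusted p = 0.982). Both pairs of groups overlapped fully. The share of Mfge8 in the summed bridges per kilobase was 85.6 ± 3.94% (SD, n = 9) in CIE astrocytes, against 91.2 ± 1.96% (n = 8) in control astrocytes.

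Of the receptors in astrocytes, Itgav and Axl came nearest to the threshold, in opposite directions. Itgav had 285 to 474 CPM (median 383) in control and 368 to 649 CPM (median 474) in CIE astrocytes. The groups overlapped, with 8 of 9 CIE libraries above the control median, and the log2 fold change was 0.36 (SE 0.12, adjusted p = 0.0793). It passed with DESeq2 (0.35, adjusted p = 0.0418), with the mouse range as a covariate (0.34, adjusted p = 0.0397) and without CIE mouse 08 (0.39, adjusted p = 0.0399). Axl had 154 to 233 CPM (median 179) in control and 121 to 202 CPM (median 152) in CIE astrocytes, 5 of 9 CIE libraries being below the lowest control library. Its log2 fold change was -0.25 (SE 0.10, adjusted p = 0.158), and -0.12 (SE 0.07, adjusted p = 0.320) with the astrocyte markers as a covariate.

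The remaining receptors of astrocytes had intervals that included 0. Log2 fold changes were 0.06 for Mertk (95% interval -0.17 to 0.29), -0.08 for Tyro3 (-0.26 to 0.10), 0.18 for Itgb5 (-0.12 to 0.48), -0.12 for Megf10 (-0.37 to 0.13) and 0.34 for Cd36 (-0.24 to 0.93), with adjusted p-values from 0.509 to 0.794. For Mertk, Tyro3, Itgb5 and Megf10 these intervals exclude changes as large as that of Mfge8. The interval of Cd36, counted 10 to 103 times per CIE library, does not and is the widest of the 10.

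**Figure D5:**
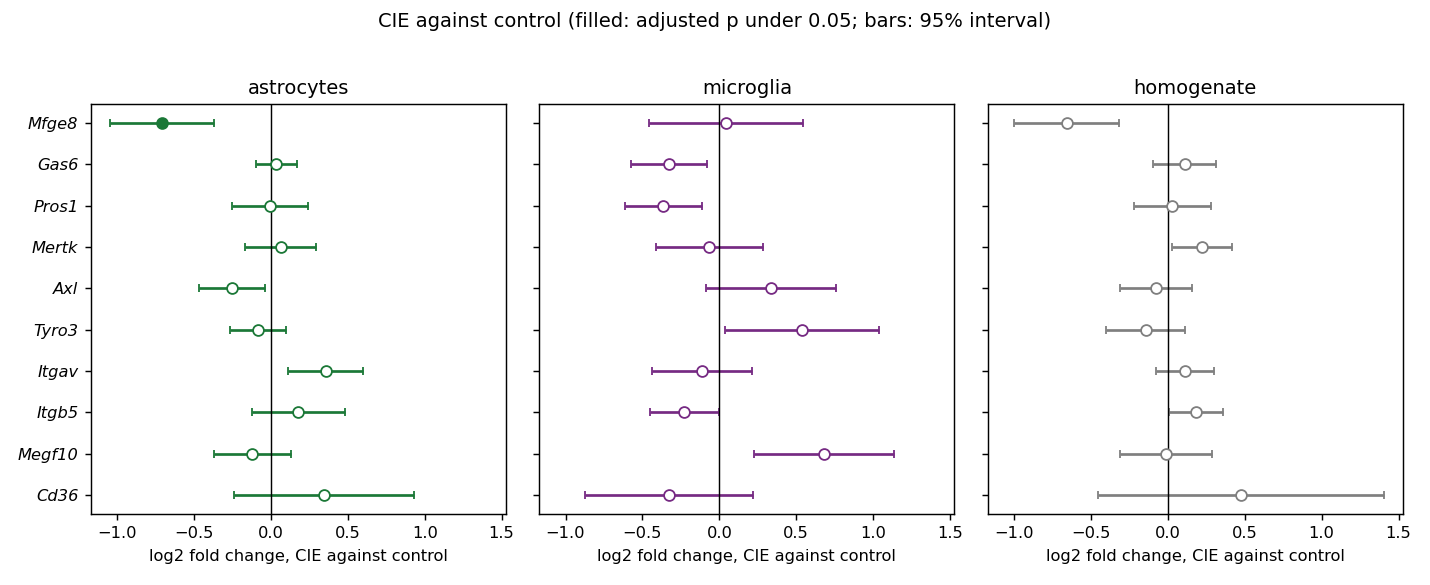
Log2 fold change of each gene in CIE against control mice in astrocytes, microglia and homogenate, with bars for the 95% interval and a filled point where the adjusted p was under 0.05. Mfge8 in astrocytes (-0.71) is the sole filled point, and its value in homogenate is -0.66.

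In microglia no member passed the test, against 3.47% of 10761 genes tested (2.31% higher and 1.15% lower). edgeR and DESeq2 both called 0 members, where DESeq2 called 767 over all genes. An unadjusted p under 0.05 was reached by 5 members and by 39 of 99 further efferocytosis genes tested. The share of all genes at that unadjusted threshold is not given, so both counts are descriptions and no result about the set. Among the 5 members, Gas6, Pros1 and Itgb5 had lower and Tyro3 and Megf10 higher fitted levels in CIE mice. Pros1 had 195 to 303 CPM (median 267) in control and 133 to 265 CPM (median 199) in CIE microglia, a log2 fold change of -0.37 (SE 0.12, adjusted p = 0.0985). Gas6 had 176 to 271 CPM (median 218) and 115 to 205 CPM (median 184), a change of -0.32 (SE 0.12, adjusted p = 0.142). Every CIE library was below the control median for both genes, though the groups overlapped. With the mouse range as a covariate Pros1 passed (-0.36, adjusted p = 0.0434).

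Itgb5, the most abundant member of microglia per kilobase, had 1949 to 2917 CPM (median 2165) in control and 1589 to 2142 CPM (median 1921) in CIE microglia. All 9 CIE libraries were below the control median and 6 below the lowest control library. The log2 fold change was -0.23 (SE 0.11, 95% interval -0.45 to -0.01, adjusted p = 0.279). Microglia markers summed to 29569 to 42699 CPM (median 30435) in control and 20379 to 28636 CPM (median 24970) in CIE microglia, without overlap, and 3 of 12 passed as lower (median log2 fold change -0.31). Neutrophil markers stood higher, with 106 to 252 CPM in control and 93.8 to 6785 CPM in CIE microglia, all 9 tested markers passing. The microglia markers were also used as a covariate, chosen after seeing the data. The values were then -0.04 (SE 0.16) for Gas6, 0.01 (SE 0.14) for Pros1 and 0.08 (SE 0.13) for Itgb5. As the marker sums of control and CIE mice did not overlap, this fit cannot separate the markers from treatment. Over all genes 24 passed with it in place of 373. With the neutrophil markers as a covariate the values of the same genes were -0.26, -0.26 and -0.13.

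Megf10 and Tyro3, below homogenate in control microglia, had higher fitted levels after CIE without passing the test. Megf10 had 13.4 to 47.0 CPM (median 20.5) in control and 22.2 to 63.7 CPM (median 34.5) in CIE microglia, on 12 to 227 counts per library. All 9 CIE libraries exceeded the control median, and the log2 fold change was 0.68 (SE 0.22, adjusted p = 0.0899). It passed with the mouse range as a covariate (0.69, adjusted p = 0.0491), without control mouse 22 (0.85, adjusted p = 0.0202) and without CIE mouse 08 (0.74, adjusted p = 0.0438). Tyro3 had 23.1 to 108.0 CPM (median 51.1) and 28.1 to 106 CPM (median 81.5), a change of 0.54 (SE 0.24, adjusted p = 0.250). Oligodendrocyte markers had a median sum of 3802 CPM in control and 6006 CPM in CIE microglia (median log2 fold change 0.71, 1 of 8 passing), and their part in these values was not tested. Astrocyte markers had a median sum of 398 and 403 CPM, and with them as a covariate, chosen after seeing the data, Megf10 was at 0.68 (adjusted p = 0.0890). With the neutrophil markers Megf10 was at 0.77 (adjusted p = 0.229). With the microglia markers, likewise chosen after seeing the data, Megf10 was at 1.20 (adjusted p = 0.0855) and Axl at 0.71 (adjusted p = 0.376). Without a covariate Axl (0.34, adjusted p = 0.446), Mertk (-0.06, 0.934), Itgav (-0.11, 0.823) and Cd36 (-0.33, 0.617) had intervals that included 0.

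Homogenate gave no call among the members, against 0.25% of 13982 genes tested (0.193% higher and 0.0572% lower). DESeq2 called 1, Mfge8, against 204 over all genes. An unadjusted p under 0.05 was reached by 3 members (Mfge8, Mertk and Itgb5) and by 14 of 104 further efferocytosis genes tested. Here too the share of all genes is not given, and the counts are descriptions. Mertk had 61.0 to 77.7 CPM (median 70.4) in control and 63.0 to 97.9 CPM (median 77.2) in CIE homogenate (log2 fold change 0.22, SE 0.09, adjusted p = 0.454). Itgb5 had 80.7 to 96.1 CPM (median 86.5) and 81.7 to 127 CPM (median 94.6), a change of 0.18 (SE 0.08, adjusted p = 0.525). For both, 4 of 9 CIE libraries exceeded the highest control library. The other 7 members had log2 fold changes from -0.14 (Tyro3) to 0.48 (Cd36), with intervals that included 0.

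Differences between the responses of the preparations were tested directly. No member passed, against 0.00695% of 14379 genes for astrocytes compared with homogenate, 0.828% for microglia compared with homogenate (0.264% as lower) and 0.529% for astrocytes compared with microglia (0.41% as lower). At an unadjusted p under 0.05 the counts were 0, 6 and 8 members. Of 111 further efferocytosis genes tested, described below, 6, 26 and 24 reached it. The share of all genes at this threshold is not given here, so these counts are descriptions. DESeq2 called 0, 1 and 0 members, against 5, 248 and 182 over all genes. The single member was Gas6, whose response in microglia differed from that in homogenate by -0.46 (SE 0.14, adjusted p = 0.104; DESeq2 adjusted p = 0.0299; without CIE mouse 41, -0.56 with adjusted p = 0.0302). Megf10 differed between astrocytes and microglia by -0.79 (SE 0.24, adjusted p = 0.134). With the mouse as a block, which pairs the preparations of 1 animal, this difference passed (-0.78, SE 0.19, adjusted p = 0.0413).

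The wider set of efferocytosis genes held 118 further genes in 8 lists. In astrocytes 3 of 104 tested rose and 0 fell (background 2.91% and 2.22%). These were C4b, a complement opsonin (log2 fold change 1.11, SE 0.19, adjusted p = 0.00448), Elmo1, an adaptor of engulfment signaling (0.52, SE 0.14, adjusted p = 0.0358), and Cybb, the catalytic subunit of the phagocyte oxidase (1.23, SE 0.34, adjusted p = 0.0406). The median log2 fold change of the set was 0.04 (0.00 over all genes). Cybb had a mean of 6.80 CPM in control and 15.8 CPM in CIE astrocytes, against 37.8 and 90.6 CPM in microglia. Of 8 border macrophage and monocyte markers tested in astrocytes, 2 passed as higher (median log2 fold change 0.54). Neutrophil markers summed to 0.972 to 13.2 CPM in control and 3.13 to 170 CPM in CIE astrocytes. The part of these cells and of carried-over microglia in the value of Cybb was not tested.

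In microglia 9 of 99 tested rose and 4 fell (background 2.31% and 1.15%), with a median of -0.08 (-0.01 over all genes). Of 13 other bridging molecules and opsonins tested 5 rose: C4b by 1.92 (30.8 ± 11.3 CPM in control, 115 ± 45.5 CPM in CIE mice, SD), C3 by 3.06, Thbs1 by 1.79, Anxa1 by 3.30 and Lgals3 by 1.52. Among 18 other receptors of dying cells, Cd300lf rose by 2.86 and Itgax by 0.86, while Trem2, a lipid-sensing receptor of microglia, fell by 0.55 (606 ± 103 to 408 ± 54.3 CPM, adjusted p = 0.0139). Atp11a, a flippase that returns phosphatidylserine to the inner membrane leaflet, rose by 0.56 (adjusted p = 0.0139). Of 20 genes of phagosome maturation and lipid handling, Cybb rose by 1.34, and the lysosomal proteases Ctsd and Ctsl fell by 0.44 and 0.32. The nuclear receptor Ppard fell by 0.40 (adjusted p = 0.0227). Anxa1, C3, Thbs1, Lgals3 and Cybb reached 250, 358, 458, 61.4 and 266 CPM in their highest CIE library, against medians of 9.80, 20.2, 82.6, 11.6 and 56.4 CPM, so these rises were uneven across mice. Neutrophil markers were as uneven, with a median of 346 and a highest sum of 6785 CPM, and their part in these values was not tested. With the neutrophil markers as a covariate 62 genes passed over all genes in place of 373. In homogenate 0 of 104 passed (14 at an unadjusted p under 0.05, a count given without the share of all genes).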

How the data were processed

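RNA of 51 libraries, 3 per mouse from 17 mice, was analysed. The deposited files hold whole read counts per gene symbol with no normalization, made by the authors. Reads were demultiplexed by bcl2fastq (version 2.17) and trimmed by Cutadapt (1.8), STAR (2.5.0a) aligned them to mm10, Picard (1.141) took out duplicates and HTSeq (0.6.1p1) counted. The strand setting and annotation release of the counting are not given in the sources used here, so overlapping antisense reads cannot be set apart. The 5 summary rows of each file, 22.1% to 67.1% of its total, were left out.

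CIE was compared with control in a separate fit per preparation. The quasi-likelihood test of edgeR (version 4.0.16, in R 4.3.3) was used after filterByExpr and TMM scaling, and p-values were adjusted by Benjamini-Hochberg over all genes tested (threshold 0.05). Preparations and their responses were compared in 1 model of the 51 libraries with 6 groups. SE is the log2 change over the square root of F. Lengths came from GENCODE M21 and promoters from RefSeq on GRCm38.p6, where 9 of 10 members had an entry. Alternatives were DESeq2 1.42.0, RLE scaling, library size only, no filter, covariates, a mouse block and leaving out each mouse. The tests were also run on simulated counts, with each library drawn independently. Those simulated counts did not cover libraries that share a mouse, and the outcome is not given here.

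The same number in the titles was taken to mark the same mouse in all preparations. Deviations of a mouse's libraries correlated with a median of 0.18 (astrocytes and microglia), 0.13 (astrocytes and homogenate) and 0.05 (microglia and homogenate). The correlation was best with the own number in 7, 7 and 3 of 17 mice, in that order. These values do not establish the pairing on which the mouse block rests.

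All members were named whatever their values. Of each other list up to 3 called genes of smallest adjusted p per preparation were to be named, and all called genes are given. The members and lists were chosen with earlier results of these data known, and the promoter motifs after the values were seen. No pair of libraries was identical. Intervals are for the fitted log2 difference between groups and not for the spread of single mice. The model of 6 groups held no term for the mouse, so its SEs and intervals treat the 3 libraries of a mouse as independent. Plots were drawn with matplotlib 3.10.9.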

Additional observations from a re-analysis of the deposited data

Results flagged for a closer look

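In 3 of 60 groups (10 genes in 6 groups of libraries) 1 library lay far from the others by Dixon's criterion, and chance flags about 1 group in 20. Pros1 in control homogenate was lowest in mouse 35, at 16.8 CPM, with the next library at 20.1 CPM. Itgb5 in control microglia was highest in mouse 22, at 2917 CPM, with the next at 2246 CPM. Megf10 in control homogenate was highest in mouse 37, at 69.9 CPM, with the next at 49.5 CPM.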

How the results depend on the processing

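The fall of Mfge8 in astrocytes passed the test under every alternative run, with log2 fold changes from -0.80 to -0.55. The count of members called in astrocytes, 1, was 2 with DESeq2 and with the mouse range as a covariate (Itgav added) and 1 to 2 without 1 mouse. In microglia the count of 0 was 2 with the mouse range (Pros1 and Megf10) and 0 to 1 without 1 mouse. In homogenate the count of 0 was 1 with DESeq2 and with the astrocyte markers as a covariate (Mfge8) and 0 to 1 without 1 mouse. For the response of microglia compared with homogenate it was 1 with DESeq2 and 0 to 1 without 1 mouse. With the replicate block on the mouse, the response of astrocytes compared with microglia had 1 member in place of 0 (Megf10, -0.78), and the block changed no other call of a member. The cause of these changes was not tested.

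Over all genes, calls in astrocytes numbered 661, against 1157 with DESeq2, 1129 with the mouse range, 1066 with the microglia markers and 410 with the astrocyte markers as a covariate, and 354 to 1001 without 1 mouse. In microglia 373 compared with 767, 775, 62 with the neutrophil markers, 24 with the microglia markers, and 182 to 684. In homogenate 35 compared with 204 (DESeq2), 81 (mouse range), 68 (astrocyte markers) and 15 to 71.

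Some values changed sign, and none of these passed the test before or after. The response of Itgb5 in astrocytes compared with homogenate was -0.020 with DESeq2 and -0.019 with RLE scaling, and that of Pros1 was 0.0032 with the replicate block. Pros1 in astrocytes was 0.0015 without the filter. In microglia Mfge8, Mertk and Itgav were -0.26, 0.21 and 0.13 with the neutrophil markers, Pros1, Itgav and Itgb5 were 0.011, 0.31 and 0.084 with the microglia markers in place of -0.37, -0.11 and -0.23, and Mfge8 was -0.00042 with the astrocyte markers. Megf10 in homogenate was 0.025 with the astrocyte markers. Without 1 mouse, ranges that crossed 0 were -0.0044 to 0.10 (Mertk) and -0.074 to 0.055 (Pros1) in astrocytes, -0.041 to 0.19 (Mfge8) and -0.17 to 0.0012 (Mertk) in microglia, -0.078 to 0.10 (Megf10) and -0.022 to 0.084 (Pros1) in homogenate, and -0.012 to 0.14 for Gas6 between astrocytes and homogenate. For the response of astrocytes compared with homogenate they were -0.099 to 0.086 (Itgb5), -0.11 to 0.092 (Pros1), -0.12 to 0.021 (Gas6), -0.32 to 0.20 (Cd36), -0.11 to 0.021 (Mfge8) and -0.0060 to 0.14 (Tyro3).

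Depth limits Cd36 most, with 1 to 36 counts per CIE homogenate library.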

Other observations

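Ratios within a library compare a pair of genes without the scaling between libraries. Axl to Mertk in homogenate was 1.12 to 1.54 (median 1.18) in control and 0.716 to 1.16 (median 1.02) in CIE mice, and in astrocytes it was 0.356 to 0.798 (median 0.465) and 0.282 to 0.540 (median 0.406). In microglia it was 0.0268 to 0.0911 (median 0.0659) and 0.0342 to 0.129 (median 0.0786). Mfge8 to Gas6 in astrocytes was 11.6 to 20.4 (median 16.8) in control and 5.16 to 13.5 (median 10.9) in CIE mice, and in homogenate 2.16 to 4.02 (median 2.58) and 0.655 to 2.73 (median 1.76). Gas6 to Pros1 in microglia was 1.01 to 1.30 (median 1.11) and 0.906 to 1.34 (median 1.20). These ratios were taken on counts per base of the longest coding transcript, so they depend on the length used. They were not tested.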
